A study of Mus musculus with 3 samples.

Results

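The miR-15, miR-16, miR-195 and miR-322 family is a set of 8 mature microRNAs (miRNAs, short RNAs that guide the silencing of messenger RNAs), chosen by name from the 1251 miRNA rows of 1 small RNA sequencing table. The members are miR-15a-5p, miR-15b-5p, miR-16-5p, miR-195a-5p, miR-497-5p, miR-322-5p, miR-322-3p and miR-503-5p, and all 8 had a row. The table covers 3 samples of epididymal (visceral) white fat of C57BL/6J mice, whose titles number them 1, 3 and 9. All 3 had eaten the same high-fat diet for 11 weeks from an age of 5 to 6 weeks, with 45% of energy from fat, 20% from protein and 35% from carbohydrate. It was enriched with 6.75% EPA, the fish-oil omega-3 eicosapentaenoic acid, and the fat was collected after a 4 h fast. No other diet was analysed here, so none of the values measures an effect of EPA. Only the titles and a count of 3 samples per group point to separate animals, so a p-value speaks for the spread of these samples alone, part of which may be technical.

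Members of this family are known to slow cell division, mainly by silencing messenger RNAs of cyclins and of other proteins that carry cells from the resting phase into DNA synthesis. miR-15a and miR-16 are best known from a locus lost in chronic lymphocytic leukaemia, where they restrain the survival factor BCL2. miR-195a is known to rise as heart muscle cells stop dividing after birth, and miR-322 and miR-503 as muscle precursors leave the cell cycle. Target choice rests largely on the seed, the stretch of bases 2 to 8 at the 5′ end of the miRNA.

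The mature sequences show why these miRNAs are grouped and where the group breaks up. They come from RefSeq (GRCm38.p6), in which 8 of 8 members were found, miR-497-5p under its newer name miR-497a-5p. Capitals mark the seed.
miR-16-5p: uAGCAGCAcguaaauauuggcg
miR-195a-5p: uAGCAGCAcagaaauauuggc
miR-15a-5p: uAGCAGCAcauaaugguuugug
miR-15b-5p: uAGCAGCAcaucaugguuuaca
miR-497-5p: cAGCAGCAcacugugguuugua
miR-322-5p: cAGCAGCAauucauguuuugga
miR-503-5p: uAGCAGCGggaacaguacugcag
miR-322-3p: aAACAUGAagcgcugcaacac

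Of the 8 members, 6 share the seed AGCAGCA. miR-503-5p has AGCAGCG, which differs from it at the last seed base (A8G, counted from 1 at the 5′ end, miR-16-5p first). miR-322-3p, the other strand of the miR-322 hairpin, has the unrelated seed AACAUGA and belongs to the set through its hairpin. Outside the seed, miR-195a-5p is nearest to miR-16-5p, with 19 of 21 compared bases identical and the substitutions G10A and U11G. miR-15a-5p and miR-15b-5p agree at 18 of 22 bases and part at A12C, G20A, U21C and G22A. How reads that fit more than 1 of these sequences were assigned is not stated in the labels or headers.

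The shared seed was carried by 10 of the 1003 rows with a RefSeq sequence. The 4 that are not members, miR-195b, miR-6342, miR-6353 and miR-6419, stood at the lowest value of the table in all 3 mice. miR-195b is shown for its nearness to miR-195a-5p, with which it shares its first 16 bases, and miR-103-3p because it carries the same 7 bases shifted to positions 1 to 7. Capitals mark those 7 bases.
miR-195b: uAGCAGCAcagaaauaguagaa
miR-103-3p: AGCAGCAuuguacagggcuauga

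The 8 hairpins that give rise to the members lie on 4 chromosomes of GRCm38, the assembly of mm10. Mir15a (chr14:61632027-61632110, minus strand) and Mir16-1 (chr14:61631880-61631972, minus strand) are 54 bases apart within the long non-coding gene Dleu2, Mir15a in an intron and Mir16-1 in sequence that at least 1 Dleu2 transcript includes in an exon. Mir15b (chr3:69009772-69009835, plus strand) and Mir16-2 (chr3:69009902-69009996, plus strand) are 66 bases apart in an intron of Smc4, a condensin subunit gene. Mature miR-16-5p is the same in both places, so its level is the sum of both loci.

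Mir497 (chr11:70234717-70234800, plus strand) and Mir195a (chr11:70235042-70235135, plus strand) are 241 bases apart. Mir497 overlaps Mir497b on the opposite strand, and no other gene of the GENCODE annotation overlaps either hairpin. Mir322 (chrX:53054255-53054349, minus strand) and Mir503 (chrX:53053984-53054054, minus strand) are 200 bases apart, and no annotated gene overlaps them. Mir351 follows 630 bases after Mir503, and Mir542 and the Mir450 hairpins lie further along on the same strand.

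The family was present in this fat and was carried by miR-16-5p. The deposited values are log2 normalized counts with a floor of 3.32, which is taken here as a count of 0 plus a constant of 10. Above that floor in all 3 mice stood 7 of the 8 members, beside 287 of all 1251 rows, and miR-503-5p stood at it in all 3. Summed on the linear scale, after the constant of 10 was taken off, the 8 members held 1.26%, 1.34% and 1.30% of the total in mice 1, 3 and 9. The 3 values lie close together, and the 6 members with the shared seed made up nearly all of each. The median level of the 8 members was 10.63, beside 3.32 over all rows, most of which are at the floor.

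miR-16-5p, the most abundant member, stood at 14.24, 14.41 and 14.31 log2 units in mice 1, 3 and 9, or ranks 23, 21 and 22 of the table. That is 20440 ± 1192 normalized counts (SD, n = 3) and 0.850% ± 0.0495 of the total. The 3 mice were nearly level, and no value of another member in any mouse came within 2 log2 units of it. miR-497-5p came next with 12.07, 11.60 and 11.81, highest in mouse 1. Its mean was 11.82 ± 0.24, so miR-16-5p stood above it by 2.49 ± 0.32 log2 units, or 5.63-fold.

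Among the 7 members above the floor, miR-322-5p was the steadiest, with 11.41, 11.38 and 11.29 in mice 1, 3 and 9 (mean 11.36 ± 0.07 SD, n = 3). miR-195a-5p averaged 10.91 ± 0.49 and was the least steady of the 8, with 10.34 in mouse 1 against 11.18 in mouse 3 and 11.21 in mouse 9. Mouse 1 stands apart from the other two, which are nearly equal. miR-15a-5p stood at 10.23, 10.53 and 10.29, a mean of 10.35 ± 0.16.

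miR-15b-5p stood at 10.43 in mice 1 and 9 and at 9.71 in mouse 3, a mean of 10.19 ± 0.42 (SD, n = 3). Here mouse 3 is the low one. miR-322-3p was far below the others, with 5.78, 6.62 and 6.40 and a mean of 6.27 ± 0.43, lowest in mouse 1. It averaged 69.2 normalized counts, under the mean of 100 that was set for tests, which 6 of the 8 members passed.

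**Figure D1:**
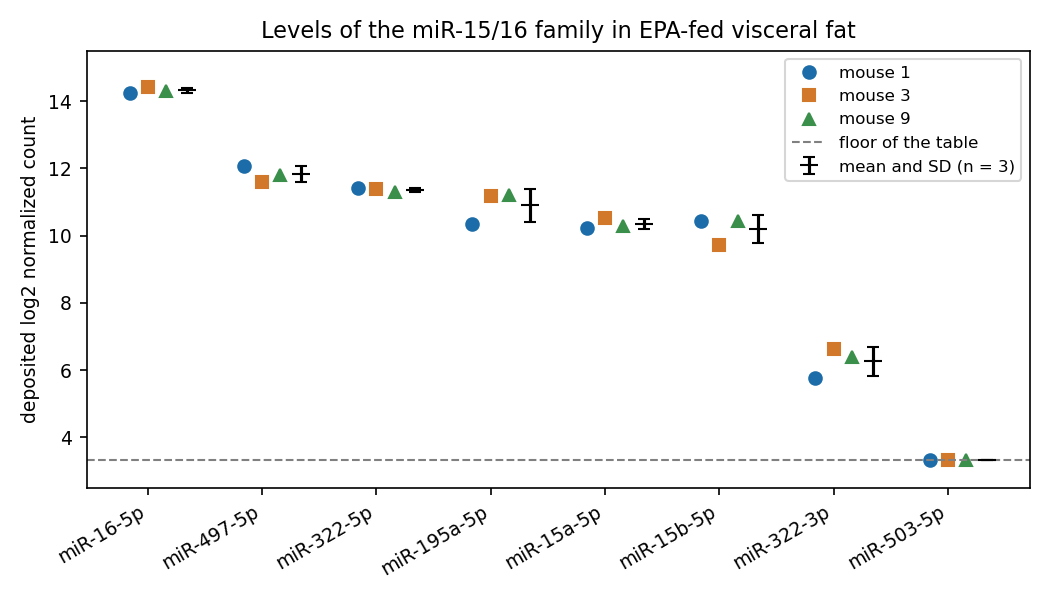
Deposited log2 normalized count (vertical axis) of the 8 members (horizontal axis, by falling mean) in mice 1, 3 and 9, with the mean and SD of the 3 beside them and the table's floor of 3.32 as a dashed line. miR-16-5p stands alone between 14.24 and 14.41, the next 5 members lie between 9.71 and 12.07, and miR-503-5p lies on the floor.

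Not all neighbours in this order differed beyond their spread. miR-322-5p exceeded miR-195a-5p by 0.45 ± 0.54 log2 units, with 1.07 in mouse 1 but 0.20 and 0.07 in mice 3 and 9. miR-15a-5p exceeded miR-15b-5p by 0.15 ± 0.57 and in only 1 of 3 mice, mouse 3. The other 5 neighbouring differences were larger than their SD and had 1 sign in 3 of 3 mice. Among them were miR-497-5p above miR-322-5p by 0.47 ± 0.22 and miR-195a-5p above miR-15a-5p by 0.56 ± 0.41. Another, miR-322-3p above miR-503-5p, set a level against the floor, so its sign was fixed. By the exact sign-flip test, two-sided, p was 0.25 for each difference with the same sign in 3 mice, the smallest that 3 mice allow, and 0.292 after Benjamini-Hochberg adjustment over the 7 neighbouring pairs. Levels of different miRNAs also carry the unequal capture of different sequences in small RNA libraries, which was not measured here.

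Within the family, miR-16-5p made up 64.0%, 67.5% and 64.6% of the summed normalized count in mice 1, 3 and 9. miR-497-5p followed with 14.2%, 9.62% and 11.4%, and miR-322-5p with 8.97%, 8.26% and 7.93%. miR-195a-5p held 4.26% in mouse 1 and 7.17% and 7.54% in mice 3 and 9. These 2 members of the chromosome 11 locus thus took different parts in mouse 1 than in the others, miR-497-5p its largest and miR-195a-5p its smallest. Their sum was nearly constant, at 0.232%, 0.224% and 0.247% of the whole table. miR-15a-5p averaged 4.15% ± 0.349 of the family and miR-15b-5p 3.83% ± 1.09 (SD, n = 3).

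**Figure D2:**
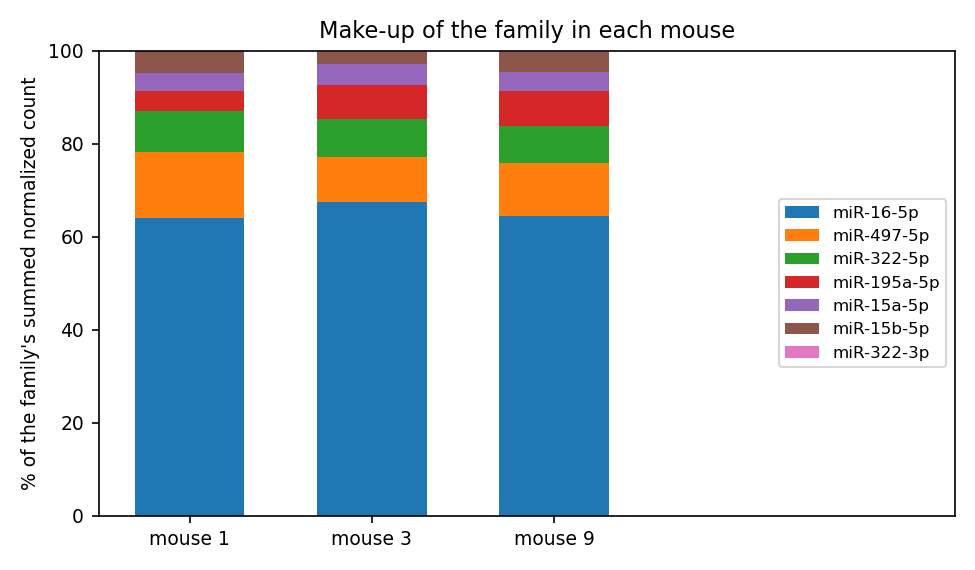
Percentage of the family's summed normalized count (vertical axis, linear) held by each member in mice 1, 3 and 9 (1 bar per mouse, no error bars). miR-16-5p holds between 64.0% and 67.5% of each bar, and the miR-195a-5p segment is smallest in mouse 1, at 4.26%.

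The members covered a wide range in how much they varied between mice. The SD of the log2 value ran from 0.07 for miR-322-5p to 0.49 for miR-195a-5p among the 6 members with a mean of at least 100. Over the 194 rows with such a mean the median SD was 0.22 and the highest 3.32. Of the 194, 12 had a smaller SD than miR-322-5p and 21 a smaller one than miR-16-5p. At the other end, 163 of the 194 had a smaller SD than miR-195a-5p and 150 a smaller one than miR-15b-5p. No test was made on these SDs, which rest on 3 values each and on columns that hold nearly 1 common set of values.

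**Figure D3:**
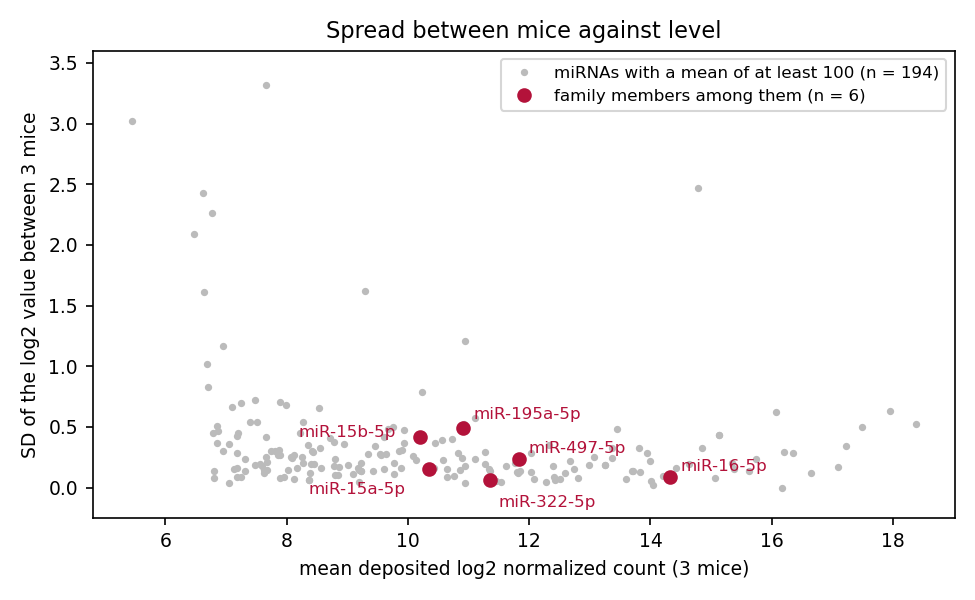
SD of the deposited log2 value between the 3 mice (vertical axis) against the mean log2 value (horizontal axis) for the 194 miRNAs that averaged 100 normalized counts or more (grey) and the 6 family members among them (red). miR-322-5p and miR-16-5p lie near the bottom and miR-195a-5p, at 0.49, is the highest of the 6.

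Members made from 1 locus were not equally abundant. miR-15a-5p lay below miR-16-5p by 4.01, 3.88 and 4.02 log2 units in mice 1, 3 and 9, which makes miR-16-5p 15.7-fold higher on average. This gap was steady, with an SD of 0.08. miR-15b-5p lay below miR-16-5p by 3.81, 4.69 and 3.87, or 17.4-fold, the widest gap being that of mouse 3. Since miR-16-5p comes from both loci, neither gap is that of a single transcript.

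In the chromosome 11 pair, miR-195a-5p lay below miR-497-5p in 3 of 3 mice. The difference was 1.73 log2 units in mouse 1 but 0.42 and 0.59 in mice 3 and 9. The mean of 0.91 ± 0.71 (SD, n = 3) corresponds to a 1.88-fold higher miR-497-5p. Without mouse 1 it would be 0.51, or 1.42-fold. In each of the 4 pairs tested, the fourth being miR-322-5p and miR-503-5p, the sign was the same in 3 of 3 mice. The exact sign-flip test, two-sided, gave its smallest possible p of 0.25, before and after Benjamini-Hochberg adjustment over the 4.

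The striated muscle markers miR-133a-3p and miR-133b-3p were also lower in mouse 1, and marker values stand here beside miR-195a-5p and miR-497-5p. The 4 striated muscle miRNAs miR-1a-3p, miR-133a-3p, miR-133b-3p and miR-206-3p summed to 0.163% of the total in mouse 1 and to 3.57% and 2.79% in mice 3 and 9. The sum rests on miR-133a-3p, which made up at least 98.8% of it in each mouse and stood at 11.94, 16.38 and 16.02 log2 units. miR-1a-3p and miR-206-3p stayed at or near the floor, with 3.32, 5.53 and 3.44 for the former and 3.32, 3.83 and 3.32 for the latter. The 7 epithelial miRNAs, 4 of them seen in every mouse, summed to 0.0692%, 0.157% and 0.0378% in mice 1, 3 and 9, with miR-200a-3p, miR-200c-3p and miR-141-3p at the floor in mouse 9. The erythroid miR-451a and miR-144-3p summed to 0.283%, 0.195% and 0.178% in mice 1, 3 and 9, highest in mouse 1. That sum rests on miR-451a, as miR-144-3p was at the floor in mice 3 and 9 and near it in mouse 1. The part of the muscle, epithelial and erythroid miRNAs in the result was not tested. Without another tissue to compare, the tissue label could not be tested. The adipocyte-enriched miR-143-3p, miR-378a-3p, miR-193b-3p and miR-365-3p were all 4 seen in every mouse. Together they held 9.12% ± 1.90 of the total, mostly from miR-143-3p and miR-378a-3p, which averaged 17.10 and 16.07 log2 units. The averages of miR-193b-3p and miR-365-3p were 10.93 and 11.54. Of the testis miRNAs 3 of 4 were at the floor throughout, but miR-34c-5p stood at 7.83, 7.64 and 7.54 in mice 1, 3 and 9. In whole tissue, fewer cells of a type and less RNA per cell cannot be told apart.

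A miRNA hairpin is cut into a 5p and a 3p strand, of which usually 1 is kept. In the family the 5p strand was the higher one in every hairpin that could be tested. Of the 8 hairpins, 7 had an arm that averaged 100 normalized counts or more, and in all 7 the 5p arm was higher by limma (moderated test of the log2 ratio against 0, two-sided, Benjamini-Hochberg adjusted p below 0.05 over 131 hairpins). Over all 131 hairpins 51.9% were called with the 5p arm higher and 45% with the 3p arm higher. Most hairpins of this fat thus lean to 1 strand, and a call by itself sets the family apart from nothing. The 2 rows of miR-16 share their 5p strand and both have a 3p strand at the floor, so their values are the same. They amount to 1 result, and what each of the 2 loci gave cannot be told.

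In 4 of the 7 the 3p arm was at the floor in all mice. These were miR-15a-3p, miR-16-1-3p, miR-16-2-3p and miR-497-3p, so no ratio is given for them. Their adjusted p by limma was 3.91e-06 for miR-15a, 3.40e-06 for both miR-16 hairpins and 3.82e-06 for miR-497, with the 5p arm higher in 3 of 3 mice each. For these 4 the test set the 5p level against the floor. The minimum of 100 let them in only through the 5p arm, so the direction was fixed in advance. The p-values thus add nothing on strand choice to the 3p strand not being detected.

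The other 3 hairpins had both strands above the floor. Their 3p arms averaged 38.5 (miR-15b), 69.2 (miR-322) and 95.6 (miR-195a) normalized counts, all under the minimum for tests. These hairpins too entered only through the 5p arm, which largely set the direction. Their p-values thus add little on direction, and the size of each ratio is what they leave to read. The miR-322 ratio of 5p to 3p was 5.63, 4.76 and 4.89 log2 units in mice 1, 3 and 9, or 34.2-fold on average (moderated SE 0.23 log2 units, limma adjusted p 3.36e-05). miR-15b-3p stood at 6.34, 4.59 and 5.33, highest in mouse 1, which put the ratio at 4.09, 5.13 and 5.11. That is 27.4-fold on average (moderated SE 0.27, limma adjusted p 7.07e-05).

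The miR-195a hairpin had the smallest mean lean among the 7, but in mouse 3 the miR-322 ratio was smaller, at 4.76 log2 units. Without mouse 1 the means were 4.77 for miR-195a and 4.83 for miR-322. miR-195a-3p stood at 7.17, 6.30 and 6.55 in mice 1, 3 and 9, so it was highest in the mouse in which miR-195a-5p was lowest. The log2 ratio of 5p to 3p was 3.17 in mouse 1, 4.88 in mouse 3 and 4.66 in mouse 9, with a mean of 4.24, or 18.9-fold (moderated SE 0.40, limma adjusted p 0.000453). Of the 62 tested hairpins with both arms above the floor in all mice, 56 had a smaller SD of the ratio than the 0.93 of miR-195a. The median SD was 0.35. The hairpin is shown because its strands were closest in level in mouse 1, with both mature arms in capitals, 5p first.
Mir195a: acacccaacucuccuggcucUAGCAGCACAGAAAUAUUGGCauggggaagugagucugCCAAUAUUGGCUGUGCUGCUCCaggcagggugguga

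**Figure D4:**
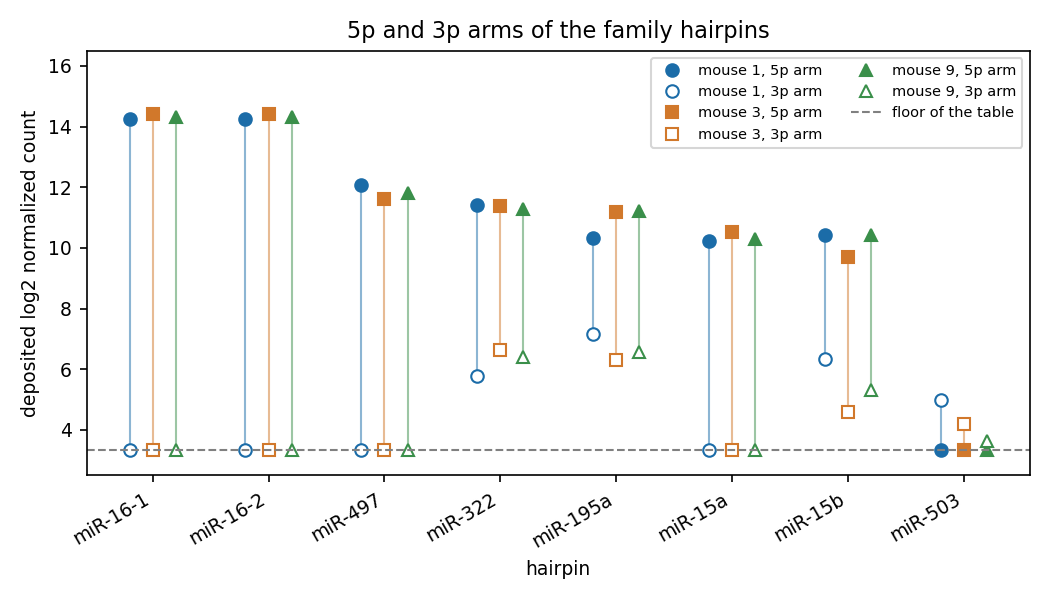
Deposited log2 normalized count (vertical axis) of the 5p arm (filled) and the 3p arm (open) of the 8 hairpins (horizontal axis) in mice 1, 3 and 9, each pair joined by a line, with the table's floor dashed. The 5p arm is the upper one in every hairpin but miR-503, and the miR-195a lines are shortest in mouse 1, at 3.17 log2 units.

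In miR-503 the order of the strands was the opposite. Its 5p strand, the family member, was at the floor in 3 of 3 mice, while miR-503-3p stood at 5.00, 4.19 and 3.62 in mice 1, 3 and 9. The 3p strand was low in all mice and nearest to the floor in mouse 9. Neither strand reached the mean of 100 for the test. With no such minimum the limma adjusted p was 0.0542 over 204 hairpins, so the higher 3p strand did not pass the threshold. With miR-503-5p at the floor, that test too set 1 strand against the floor, and its direction was fixed. The floor means that miR-503-5p was not detectable here, not that the cells lack it. The hairpin is shown with both arms in capitals, 5p first.
Mir503: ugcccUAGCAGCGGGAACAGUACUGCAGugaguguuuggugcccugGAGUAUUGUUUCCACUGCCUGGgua

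miR-503 lies between hairpins whose products were plentiful. On its 5′ side miR-322-5p averaged 11.36 ± 0.07 log2 units, and on its 3′ side miR-351-5p stood at 11.34, 11.05 and 11.41 in mice 1, 3 and 9. miR-351-5p has the seed CCCUGAG and is not of this family. miR-322-5p exceeded it by 0.09 ± 0.23 log2 units and in 2 of 3 mice, a difference within the spread (two-sided exact sign-flip p 0.75, a pair added after the values were seen). Further along, miR-450a-5p stood at 5.64, 6.08 and 6.04, miR-542-5p was above the floor in 2 mice and miR-450b-5p in 1. Of the 13 mature strands listed for the 7 hairpins of this X-chromosome cluster, 5 were above the floor in all mice, 2 in some and 6 in none.

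**Figure D5:**
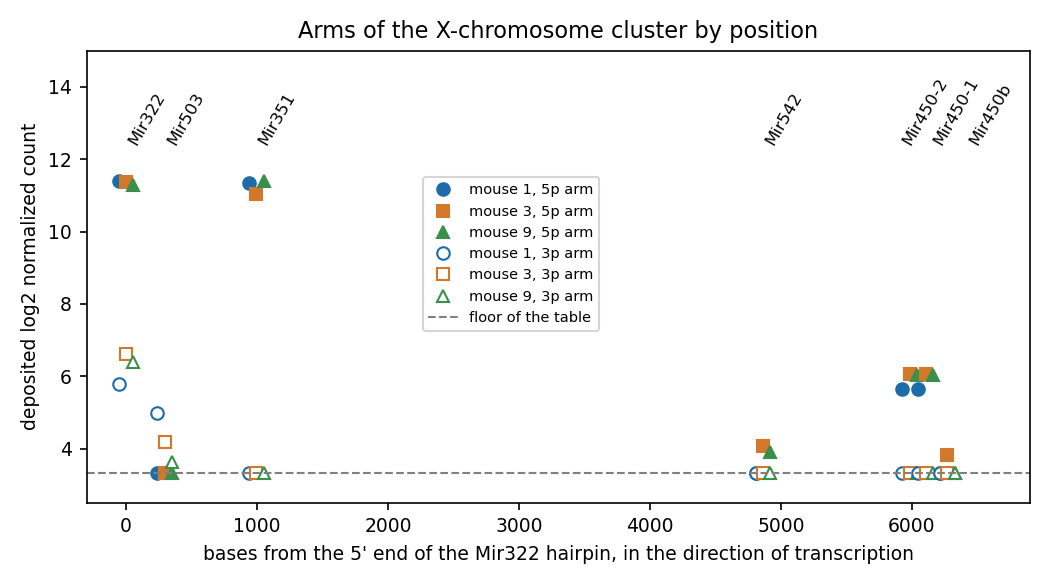
Deposited log2 normalized count (vertical axis) of the 5p (filled) and 3p (open) strands of the X-chromosome cluster in mice 1, 3 and 9, by distance in bases from the 5′ end of the Mir322 hairpin (horizontal axis, mice set slightly apart, miR-450a-5p drawn at both of its hairpins). miR-322-5p and miR-351-5p lie between 11.05 and 11.41, and the miR-503 strands between them lie at 5.00 or lower.

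miR-103-3p and miR-107-3p, which carry the 7 shared bases at positions 1 to 7 and are known for their part in insulin sensitivity, are not of the family. miR-103-3p stood at 13.56, 13.69 and 14.18 log2 units and miR-107-3p at 9.80, 10.08 and 9.15 in mice 1, 3 and 9. In each mouse miR-103-3p was below miR-16-5p, by the least in mouse 9. Summed, the 2 held 0.540%, 0.593% and 0.795% of the total, and the 6 members with the shared seed were 2.05-fold higher on average. The log2 ratio was 1.22, 1.17 and 0.71 (exact sign-flip test, two-sided, p 0.25, the lowest that 3 mice allow, a ratio added after the values were seen).

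The miR-17 seed family, known to promote cell division, was the smaller of the 2 cell-cycle families. Of its 6 listed members miR-17-5p, miR-20a-5p, miR-93-5p and miR-106b-5p were seen in every mouse, while miR-20b-5p and miR-106a-5p were at the floor in all. miR-93-5p led with 12.12, 12.12 and 12.00 log2 units in mice 1, 3 and 9, a level near that of miR-497-5p. The others were much lower, miR-17-5p averaging 7.19 ± 0.16 and miR-106b-5p 7.25 ± 0.09. The sum of the 6 members with the AGCAGCA seed exceeded the miR-17 seed sum by 2.68, 2.75 and 2.82 log2 units, or 6.73-fold on average (SD 0.07 log2 units, n = 3). This held in 3 of 3 mice, and the exact sign-flip test, two-sided, gave p = 0.25, the lowest that 3 mice allow.

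The rows nearest to the 3 leading members were found by the root mean square difference of the log2 values over 3 mice. miR-148a-3p was nearest to miR-16-5p, at 0.12, and held the same 3 values in another order, 14.41, 14.31 and 14.24 in mice 1, 3 and 9. That comes from the nearly common set of values in the columns, so nearness here is one of ranks. miR-145a-5p (0.18) and let-7b-5p (0.22) followed. For miR-497-5p the nearest were miR-140-3p (0.10), miR-221-3p (0.22) and let-7d-3p (0.24), and for miR-322-5p miR-423-3p (0.12), miR-181c-5p (0.12) and miR-30a-3p (0.18).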

How the data were processed

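Small RNA libraries of total RNA were made with an Illumina kit, per the labels' protocols. The deposited values are log2 values, 1 per mature miRNA and sample. Per the series' design text, the authors ran the Gunaratne pipeline, with about 13.8 M reads of each sample mapped to mm10, scaled counts by all usable reads and added 40. For the aligner and the miRNA annotation, nothing is given in the sources used here. The values hold a constant of 10, not 40, and the sorted columns nearly coincide: 121 of 336 ranks above the floor agree within 1e-06, and no rank differs by more than 0.34. Totals are thus alike by construction, differences between mice are in essence of ranks, and library depth is unknown, so no counting interval is given.

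Linear values are the power of 2 minus 10, and differences of low miRNAs are understated on the deposited scale. Arm ratios used limma 3.58.1 in R 4.3.3 on 131 of 427 hairpins (those whose higher arm averaged 100 or more), and the test was tried on simulated data. Python 3.11.15, numpy 2.4.6, pandas 2.3.3 and matplotlib 3.10.9 did the rest. Hairpin positions come from GENCODE M21. Named were all members, their partner strands, cluster neighbours, rows with the seed, miR-103-3p and miR-107-3p, the miR-17 seed list and the 3 rows nearest to each of the 3 highest members. Markers of endothelial, leukocyte and erythroid cells held 0.718% ± 0.145, 0.367% ± 0.0134 and 0.219% ± 0.0565 of the total (SD, n = 3). Of the leukocyte list, miR-142-3p was at or near the floor, with 4.31, 3.32 and 3.83 log2 units in mice 1, 3 and 9. Members and lists were chosen with earlier results of these data known.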

Additional observations from a re-analysis of the deposited data

How the results depend on the processing

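The alternatives were a constant of 1 or 40, median-ratio scaling, no constant taken off, identical rows counted once, other minimums (none or 1000), a detection minimum of 10 or 100, a trended limma prior and leaving out each mouse. None of the 159 recomputed values changed direction. Levels, shares, counts and the 4 arm ratios with a 3p arm at the floor could not, so this speaks only for the other ratios and differences. The level of miR-322-3p with a constant of 40 moved by more than its SD. The 3 counts of arm calls moved at a minimum of 1000. The 7 arm calls of the family held in each of 8 refits, 56 values in which the miR-16 hairpins repeat each other. In the 4 with a 3p arm at the floor the direction could not change. For miR-15b, miR-195a and miR-322 the limma adjusted p ran from 6.14e-06 to 0.0213, the highest for miR-195a. A minimum of 1000 left 69 hairpins to test, of which 69 were called by limma, 41 with the 5p and 28 with the 3p arm higher, fewer because fewer were tested. Leaving out each mouse kept the family share between 1.28% and 1.32%. With a constant of 40, miR-322-3p averaged 6.75. No paired analysis was possible because there is 1 group. Beyond the rounded figure of 13.8 M mapped reads the depth of each library is not known, so what a floor value allows cannot be given.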
